A study of Homo sapiens with 8 samples.

Results

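The 10 genes described here encode transcription factors of the activator protein 1 (AP-1) group. They were chosen by name, as AP-1 factors linked to the mesenchymal state of neuroblastoma cells, and they are 10 of the 60659 genes of the count table. All 10 were found by their symbols and had enough counts to be tested in every comparison. Of these, 4 belong to the FOS family (FOS, FOSB, FOSL1 and FOSL2), JUN, JUNB and JUND make up the JUN family, and ATF3, BATF3 and MAFF are more distant members.

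AP-1 is a dimer of basic leucine zipper proteins. A JUN protein can pair with itself or with a FOS, ATF or BATF protein, and the pair binds short sites in promoters and enhancers. FOS, FOSB, JUN, JUNB and ATF3 are immediate early genes, which cells switch on within minutes of a stimulus, and MAP kinases control both their transcription and their proteins. In neuroblastoma, FOSL1, FOSL2 and JUN are known as part of the program of mesenchymal cells, while adrenergic cells run on factors such as GATA2 and HAND2.

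The study sequenced rRNA-depleted total RNA of SK-N-SH, a line from a human neuroblastoma known to hold cells of more than 1 morphology. There were 4 groups of 2 libraries, and every group received all-trans retinoic acid (ATRA) at 10 μM for 24 h in medium with reduced serum. The study asked how the chromatin reader ZMYND8 acts on the genes that cells use during ATRA-induced neuronal differentiation. In the overexpression experiment, parental cells were compared with cells carrying FLAG-tagged ZMYND8, and both had doxycycline (Dox). According to the methods, the transgene sat in the pInducer20 lentiviral vector and transduced cells were selected with G418. The parental cells are not described as carrying an empty vector, so the effects of ZMYND8, vector and selection cannot be told apart. The knockdown experiment compared cells with ZMYND8 knockdown with KD control cells, and no Dox is given for either. The methods describe shRNAs in the pLKO.1 vector, without naming SK-N-SH cells there.

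The libraries held 38316523 to 56256979 counts on genes. Levels are given as CPM, the count divided by the library's total and scaled by TMM, a normalization that sets the bulk of genes level between libraries. ZMYND8 itself was at 72.7 and 69.9 CPM in the parental libraries and at 4102 and 4155 CPM with overexpression, in the direction of the label. With knockdown it was at 31.3 and 31.5 CPM, against 59.5 and 61.0 CPM in the KD control, again in the direction of the label. The labels call the 2 libraries of a group replicates. The titles of the KD control libraries also number the controls as I and II, without saying what the numbers mean. Nothing else in the labels ties libraries to separate cultures, so p-values measure only the spread between these samples, which may be technical.

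The sequences before 4 of these genes are shown because they belong to members that moved in different ways. ATF3 and FOS rose with overexpression, JUN fell, and no change of JUND was detected without correction for GC content and gene length. With that correction JUND was lower (log2 fold change -0.65). The sequences come from RefSeq promoter windows (GRCh38.p14), which held 8 of the 10 members and not FOSL1 and BATF3. Each run ends at the base before the gene's span in the count table. It is read on the gene's strand from 5′ to 3′, and capitals mark the motif found. The stretches are chr1:58784049-58784297 (minus strand) for JUN, chr1:212565157-212565333 (plus strand) for ATF3, chr14:75278578-75278825 (plus strand) for FOS and chr19:18281623-18281872 (minus strand) for JUND.
JUN: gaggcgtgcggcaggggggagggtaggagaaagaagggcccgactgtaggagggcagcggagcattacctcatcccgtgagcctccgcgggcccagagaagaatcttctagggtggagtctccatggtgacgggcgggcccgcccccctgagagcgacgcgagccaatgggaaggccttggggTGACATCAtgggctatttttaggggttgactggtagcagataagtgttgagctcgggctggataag
ATF3: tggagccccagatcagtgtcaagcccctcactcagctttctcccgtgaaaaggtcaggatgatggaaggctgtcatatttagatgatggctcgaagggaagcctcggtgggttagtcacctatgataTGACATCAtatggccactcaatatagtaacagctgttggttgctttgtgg
FOS: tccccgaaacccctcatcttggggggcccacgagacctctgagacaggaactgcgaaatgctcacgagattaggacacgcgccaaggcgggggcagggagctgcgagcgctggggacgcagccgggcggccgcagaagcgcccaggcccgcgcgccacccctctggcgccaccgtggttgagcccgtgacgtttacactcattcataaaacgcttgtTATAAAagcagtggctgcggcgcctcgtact
JUND: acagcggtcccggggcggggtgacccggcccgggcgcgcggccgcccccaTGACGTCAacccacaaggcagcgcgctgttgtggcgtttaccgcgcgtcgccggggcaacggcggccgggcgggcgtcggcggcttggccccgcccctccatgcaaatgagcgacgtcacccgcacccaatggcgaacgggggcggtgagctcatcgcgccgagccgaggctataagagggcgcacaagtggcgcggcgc

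Motifs were searched on both strands in windows of 300 bases, from 250 before to 50 after each start as RefSeq gives it, which for ATF3 lies inside the gene's span in the count table. TGACATCA, a variant of the cyclic AMP response element (CRE) that JUN and ATF proteins can bind, was found at 67 bases before the start of JUN and at 123 bases before that of ATF3. It was present in 2.71% of 27305 promoters. The full CRE, TGACGTCA, was found before JUND and MAFF and in 1.98% of promoters, and TGACTCA, the classical AP-1 site, was found in the window of FOSL2 and in 4.92%. TATAAA lay 33 bases before the start of FOS, 30 before FOSB and 31 before JUNB, and it was present in 12% of promoters. The CArG box, the site of serum response factor, was found in its strict form in 1.29% of promoters and in no member's window. Sites farther than 250 bases before a start were not searched, so a member can have one there. These matches are descriptions of the letters, and the count data hold no measure of binding.

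Levels of different genes were compared only per length, as TPM, which divides each gene's count by its summed exon length and scales every library to the same total. In the parental cells JUND was highest, with a mean of 218 TPM (202 and 234 in the 2 libraries). JUNB followed at 99.5 TPM, and then JUN at 68.7, FOSL1 at 68.1 and FOSL2 at 62.3 TPM, where JUN and FOSL1 overlapped between libraries. MAFF, FOS, ATF3, BATF3 and FOSB lay between 5.88 and 0.431 TPM. The family in parental cells was thus led by JUND and JUNB. Of the immediate early genes, JUNB and JUN were among the higher members and FOS, FOSB and ATF3 among the lower.

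The order was different in the other groups. With ZMYND8 overexpression JUND (235 TPM) and JUNB (135 TPM) were again highest, and FOSL1 stood below JUN and FOSL2 at 22.0 TPM, close to ATF3 at 15.5 TPM and FOS at 11.2 TPM. In the KD control libraries FOSL1 stood second, at 120 TPM (118 and 122), below JUND at 155 TPM. With knockdown FOSL1 led all 10 members at 176 TPM (169 and 184), above JUND at 140 TPM (138 and 143). TPM is not corrected for GC content, which is 59.7% in FOSL1 and 69.9% in JUND. In the knockdown group JUNB (105 TPM), JUN (105 TPM) and FOSL2 (98.8 TPM) overlapped with their neighbours in the order. FOSB was lowest in the parental and overexpression groups, and BATF3 in the KD control and knockdown groups.

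**Figure D1:**
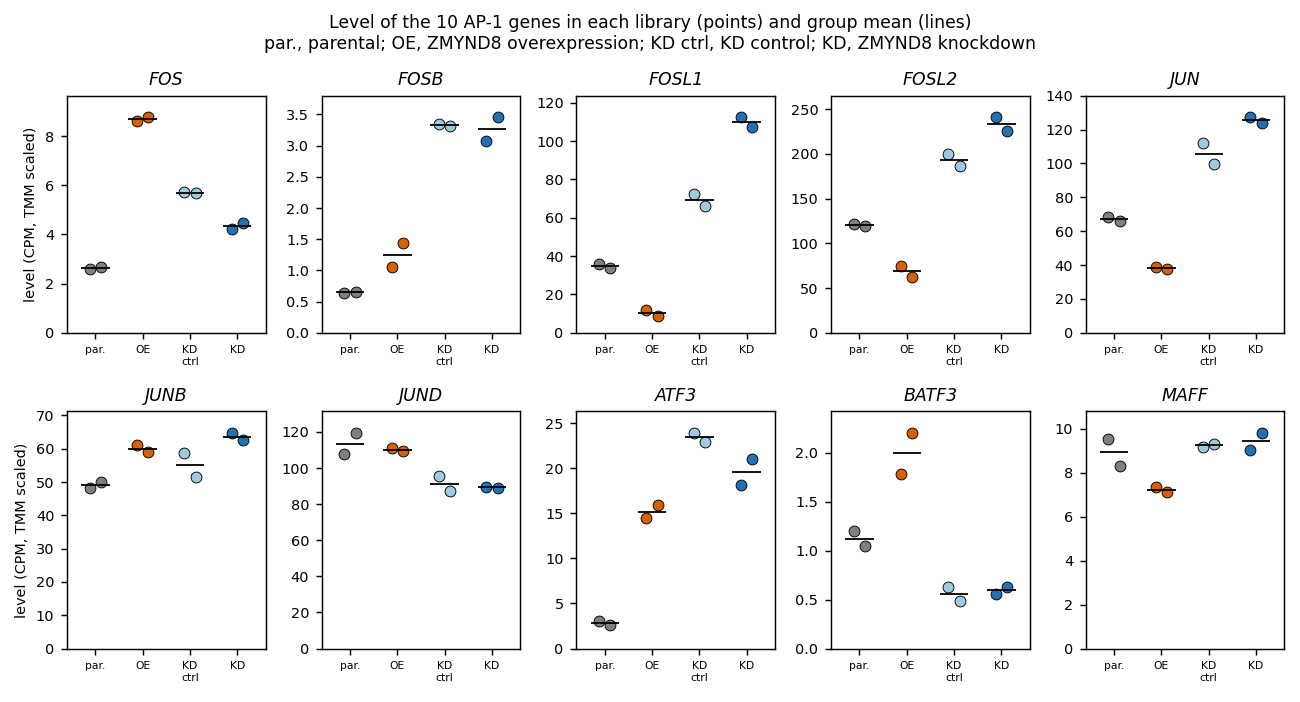
Level of each AP-1 gene in the 8 libraries, in CPM scaled by TMM (y axis from 0, a separate scale for each gene); points are libraries and lines are means of 2. FOSL1, FOSL2 and JUN share the order knockdown, KD control, parental and overexpression from high to low, FOS and ATF3 are lowest in parental cells, and JUND stays between 87.1 and 119 CPM. These levels are not corrected for GC content, and the JUND comparisons changed with that correction.

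The first comparison set ZMYND8 overexpression against the parental cells. ATF3, FOS, FOSB, BATF3 and JUNB rose and FOSL1, FOSL2, JUN and MAFF fell, with adjusted p below 0.05. In all, 5 members were higher and 4 were lower, beside 31.7% of all 20835 genes tested that were higher and 29.1% that were lower at the same adjusted p. A gene was called when its adjusted p was below 0.05, its log2 fold change at least 1 in size and its mean normalized count above 20. Of the members, 2 (ATF3 and FOS) were called higher, beside 11.8% of all genes, and 1 (FOSL1) was called lower, beside 6.84%. The members' median log2 fold change was 0.13, against 0.03 for all genes tested. Adjusted p-values come from the quasi-likelihood test of edgeR and are adjusted after Benjamini and Hochberg over all genes tested. Where groups are said not to overlap, this describes 2 libraries against 2. No share of such genes over all genes is given beside it, so it adds no support to a call.

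Within the FOS family, the members went in opposite directions. FOS (ENSG00000170345, chr14:75278826-75282230, plus strand) encodes the classical partner of JUN, a strong activator with a short-lived mRNA. Its level was 2.61 and 2.67 CPM in the parental libraries and 8.63 and 8.77 CPM with overexpression, on 111 to 464 counts. Both overexpression libraries lay above both parental ones, with a log2 fold change of 1.73 (SE 0.125, adjusted p = 6.83e-07), which is 3.31-fold higher. FOSB (ENSG00000125740, chr19:45467995-45475179, plus strand), the gene of a close relative of FOS, was at 0.636 and 0.658 CPM and at 1.06 and 1.43 CPM. The groups did not overlap, with a log2 fold change of 0.94 (SE 0.267, adjusted p = 0.0108) on only 27 to 63 counts per library. The FOSB result was lost in DESeq2 (adjusted p = 0.113) and without overexpression replicate 2 (0.72, adjusted p = 0.0817), while it passed the fold threshold without replicate 1 (1.15, adjusted p = 0.00547).

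FOSL1 and FOSL2 encode the Fra proteins, which lack the strong activation domain of FOS and whose mRNAs last longer after a stimulus. FOSL1 (ENSG00000175592, chr11:65892049-65900573, minus strand) stood at 35.7 and 33.9 CPM in the parental libraries and at 11.8 and 8.57 CPM with overexpression. Its log2 fold change was -1.75 (SE 0.119, adjusted p = 4.08e-07), which is 3.37-fold lower, with both overexpression libraries below both parental ones. FOSL2 (ENSG00000075426, chr2:28392448-28417317, plus strand) stood at 121.55 and 119.66 CPM and at 75.1 and 62.2 CPM. It fell by 0.80 on the log2 scale (SE 0.0769, adjusted p = 6.34e-06), without overlap and short of the fold threshold.

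Of the FOS family's summed TPM, the shares of FOS and FOSL2 were higher with overexpression and that of FOSL1 was lower. FOSL1 held 51.3% and 50.4% in the parental libraries and 31.8% and 27.96% with overexpression. FOS held 2.23% and 2.35% in the parental libraries and 13.8% and 17.0% with overexpression. FOSL2 held 46.1% and 46.9% against 53.4% and 53.5%. FOSL1 exceeded FOS by a TPM ratio of 23.0 and 21.4 in the parental libraries and of 2.30 and 1.65 with overexpression, so the ratio was lower in both overexpression libraries while FOSL1 still exceeded FOS. The summed TPM of the 4 FOS family genes was 133 and 135 in the parental libraries and 78.1 and 69.0 with overexpression.

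In the JUN family, JUN fell, JUNB was slightly higher and JUND did not pass the test. JUN (ENSG00000177606, chr1:58776845-58784048, minus strand), the AP-1 subunit with the strongest activation domain of its family, stood at 68.4 and 66.2 CPM in the parental libraries and at 38.7 and 37.9 CPM with overexpression. The groups were far apart relative to their spread, with a log2 fold change of -0.80 (SE 0.0514, adjusted p = 2.66e-07), 1.75-fold lower. JUNB (ENSG00000171223, chr19:12791486-12793315, plus strand), which can antagonize JUN, was at 48.2 and 50.2 CPM and at 61.0 and 59.1 CPM, without overlap. Its log2 fold change was 0.30 (SE 0.0528, adjusted p = 6.43e-04). JUND (ENSG00000130522, chr19:18279694-18281622, minus strand), the subunit expressed in most cells without a stimulus, was at 107.71 and 119.43 CPM and at 110.95 and 109.23 CPM, so the groups overlapped. Its log2 fold change was -0.04 with a 95% interval from -0.17 to 0.09 (adjusted p = 0.615).

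The exons of JUNB and JUND hold 64.9% and 69.9% G and C, the most of the 10 members. With trends over GC content and gene length removed together, JUNB turned to -0.11 (adjusted p = 0.104) and JUND to -0.65 (adjusted p = 4.20e-06), while JUN was at -1.003 (adjusted p = 4.67e-08) and passed the fold threshold. Of the exon bases of JUNB, 14.2% lie opposite those of HOOK2 on the other strand, and since the strand setting of the counting is not stated, reads of the pair could be mixed. As shares of the JUN family's summed TPM, JUN held 18.7% and 17.0% in the parental libraries and 10.5% in each overexpression library. JUNB held 26.1% and 25.5% against 32.8% and 32.5%, and JUND 55.3% and 57.5% against 56.7% and 57.0%.

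ATF3 rose most of the 10 members. ATF3 (ENSG00000162772, chr1:212565334-212620777, plus strand) encodes a stress-induced factor that pairs with JUN proteins and represses transcription as a homodimer. Its level was 3.06 and 2.59 CPM in the parental libraries and 14.5 and 15.9 CPM with overexpression. The log2 fold change was 2.44 (SE 0.122, adjusted p = 3.71e-08), 5.42-fold higher, and it stayed between 2.32 and 2.54 when any library was left out.

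BATF3 was higher and MAFF slightly lower. BATF3 (ENSG00000123685, chr1:212686417-212699840, minus strand), a small partner of JUN proteins that lacks an activation domain, lies close to ATF3 on the chromosome. It was at 1.20 and 1.04 CPM in the parental libraries and at 1.78 and 2.20 CPM with overexpression, on 51 to 97 counts. The log2 fold change was 0.84 (SE 0.219, adjusted p = 0.00701), and DESeq2 gave an adjusted p of 0.0673. MAFF (ENSG00000185022, chr22:38200767-38216507, plus strand), a small MAF protein that pairs with CNC and BACH factors, was at 9.53 and 8.32 CPM and at 7.36 and 7.11 CPM. Its log2 fold change of -0.29 (SE 0.111, adjusted p = 0.0434) was near the threshold, and 5.81% of its exon bases lie opposite those of PLA2G6. The MAFF result was lost in DESeq2 (adjusted p = 0.148). It was also lost without parental replicate 1 (-0.21), overexpression replicate 1 (-0.31) or overexpression replicate 2 (-0.26). With the GC content and length correction MAFF was at -0.53 (adjusted p = 0.00182 in edgeR).

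Markers of the cell states known in neuroblastoma moved in the same comparison. The summed level of 12 adrenergic markers was 443 to 454 CPM in the parental libraries and 1290 to 1364 CPM with overexpression, and 10 of the 11 tested were higher at the adjusted p. The summed level of 11 mesenchymal markers was 10959 to 11533 CPM against 4156 to 4391 CPM, and 10 of the 11 tested were lower, with TWIST1 higher (log2 fold change 1.31). CD44 is in this list and in the list of AP-1 targets. The summed level of 7 Schwann cell and glial markers was 2.59 to 2.73 CPM against 8.59 to 9.36 CPM, with SOX10 and CDH19 at 3 counts or fewer in every library. The summed level of 6 leukocyte markers was 0.329 to 0.424 CPM against 0.545 to 0.558 CPM, and the 1 tested was higher (log2 fold change 1.30), while 3 of the 6, among them PTPRC and CD3E, were at 3 counts or fewer in every library. The part of the cell states in the AP-1 values was not tested, and in such bulk RNA fewer cells of a type and less RNA per cell cannot be told apart.

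**Figure D2:**
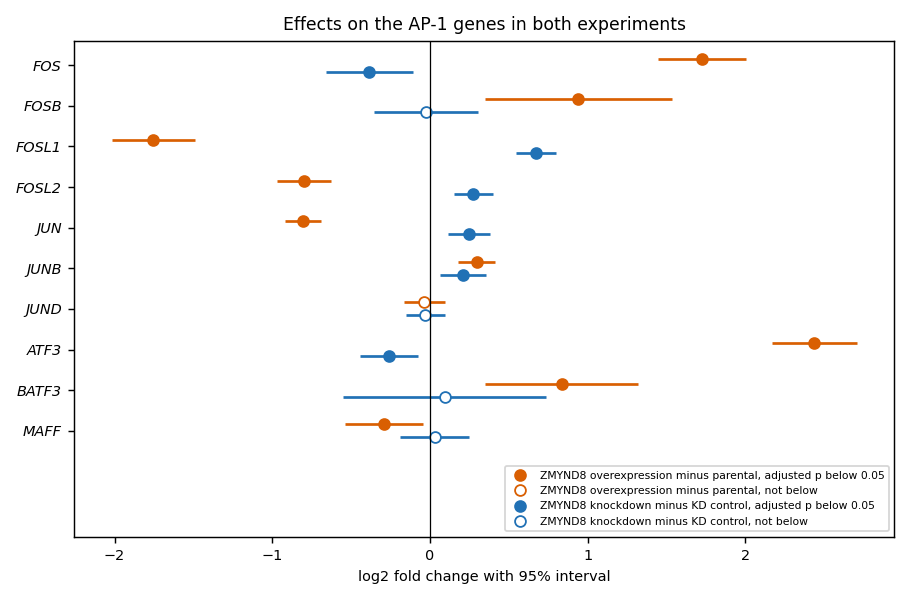
Log2 fold change of each AP-1 gene with its 95% interval (x axis) in the overexpression comparison (orange) and the knockdown comparison (blue); filled points have an adjusted p below 0.05 in edgeR. ATF3 (2.44) and FOS (1.73) lie farthest to the right and FOSL1 (-1.75) farthest to the left with overexpression, and the knockdown values lie between -0.39 and 0.67; the JUNB value with overexpression (0.30) turns to -0.11 with the GC content and length correction.

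The second comparison set ZMYND8 knockdown against its KD control, and the effects were smaller. FOSL1, FOSL2, JUN and JUNB were higher and FOS and ATF3 were lower at an adjusted p below 0.05. That is 4 members higher, beside 13.4% of 19789 genes tested, and 2 lower, beside 10.8%. No member was called (0 of 10 in edgeR and 0 in DESeq2), beside 1.96% of all genes called in either direction, since no log2 fold change reached 1. At an unadjusted p below 0.05 the number of members was 6 in edgeR, and no share of all genes at that p is given beside it. The members' median log2 fold change was 0.06, against -0.01 for all genes tested.

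FOSL1 had the largest change of the members here. Its level was 72.3 and 65.9 CPM in the KD control libraries and 112.45 and 107.12 CPM with knockdown. Its log2 fold change was 0.67 (SE 0.0579, adjusted p = 2.33e-05), 1.59-fold higher, with no overlap, and leaving out any library gave 0.61 to 0.73. FOSL2 was at 199.62 and 186.8 CPM and at 241.12 and 225.69 CPM, with a log2 fold change of 0.28 (SE 0.0564, adjusted p = 0.00515). Without KD control replicate 2, the FOSL2 value was 0.23 (adjusted p = 0.0666).

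JUN and JUNB were higher by similar amounts. JUN was at 112.16 and 99.5 CPM in the KD control libraries and at 127.3 and 123.65 CPM with knockdown, with a log2 fold change of 0.25 (SE 0.0602, adjusted p = 0.0126). JUNB was at 58.7 and 51.5 CPM and at 64.7 and 62.6 CPM, with a log2 fold change of 0.21 (SE 0.0654, adjusted p = 0.0387). In both genes the first KD control library was nearer to the knockdown libraries than the second. Without KD control replicate 2, JUN was at 0.17 (adjusted p = 0.133) and JUNB at 0.12 (adjusted p = 0.318), and without knockdown replicate 1 JUNB was at 0.18 (adjusted p = 0.0717). Without the filter on low counts neither passed (adjusted p = 0.0722 for JUN and 0.144 for JUNB). JUND was at 95.6 and 87.1 CPM and at 89.6 and 89.2 CPM, so the groups overlapped, with a log2 fold change of -0.03 and a 95% interval from -0.15 to 0.09 (adjusted p = 0.761).

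FOS and ATF3 were lower, close to the threshold of the test. With knockdown FOS was at 4.22 and 4.47 CPM, against 5.71 and 5.67 CPM in the KD control, with a log2 fold change of -0.39 (SE 0.124, adjusted p = 0.0458). ATF3 was at 23.9 and 22.9 CPM and at 18.1 and 21.0 CPM, with a log2 fold change of -0.26 (SE 0.0833, adjusted p = 0.0457). The groups did not overlap in either gene. The FOS result was lost in DESeq2 (adjusted p = 0.131) and when any 1 of the 4 libraries was left out. The FOS value was -0.39 without KD control replicate 1 or 2, -0.35 without knockdown replicate 1 and -0.42 without knockdown replicate 2. The ATF3 result was lost in DESeq2 (adjusted p = 0.0724). It was also lost without KD control replicate 1 (-0.24), KD control replicate 2 (-0.29) or knockdown replicate 1 (-0.16).

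For the remaining 3 members no difference was detected with knockdown. FOSB was at 3.35 and 3.31 CPM and at 3.07 and 3.46 CPM, with a 95% interval of the log2 fold change from -0.35 to 0.30 (adjusted p = 0.928). BATF3 was at 0.628 and 0.488 CPM and at 0.554 and 0.634 CPM, and with 27 to 33 counts per library its interval was wide, from -0.55 to 0.74 (adjusted p = 0.854). MAFF was at 9.17 and 9.33 CPM and at 9.05 and 9.81 CPM, with an interval from -0.19 to 0.25 (adjusted p = 0.861). The groups overlapped in each of these genes.

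The family shares moved in the FOS family and less in the JUN family. FOSL1 held 55.9% and 55.1% of the FOS family's summed TPM in the KD control libraries and 62.6% and 62.9% with knockdown, and FOS held 2.61% and 2.81% against 1.39% and 1.55%. With knockdown the TPM ratio of FOSL1 to FOS was 45.0 and 40.4, against 21.4 and 19.6 in the KD control. The JUN share was 27.5% and 27.3% against 30.0% and 29.8%, and the JUND share 44.03% and 44.8% against 39.7% and 40.4%. Of the markers, adrenergic genes summed to 965 to 1012 CPM in the KD control and 842 to 921 CPM in the knockdown libraries, and mesenchymal genes to 6350 to 6488 CPM and 7447 to 7920 CPM. Of the 11 mesenchymal markers 6 were higher and 2 lower, among them PRRX1 (log2 fold change -0.98), and of 10 adrenergic markers tested 1 was higher and 4 were lower. Their part in the AP-1 values was not tested.

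**Figure D3:**
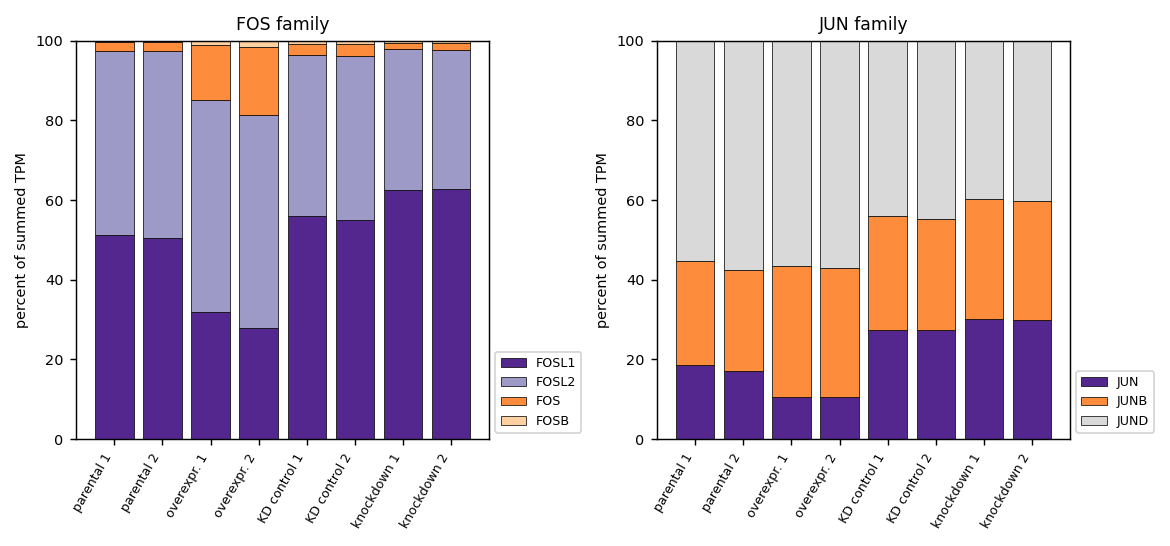
Share of each gene in the summed TPM of the FOS family (left) and the JUN family (right) in each of the 8 libraries, in percent of the family's sum. In the FOS family, FOSL1 runs from 27.96% to 31.8% with overexpression and from 62.6% to 62.9% with knockdown, and FOS reaches 13.8% and 17.0% with overexpression.

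Whether the effect of overexpression differed from that of knockdown was tested for each member in a model over all 8 libraries. The difference passed an adjusted p below 0.05 in 6 members. It was higher for overexpression in 3 (FOS, FOSB and ATF3), beside 24.6% of 22619 genes tested, and lower in 3 (FOSL1, FOSL2 and JUN), beside 24.4%. In JUNB the difference was 0.08 with a 95% interval from -0.11 to 0.27 (adjusted p = 0.496). In JUND it was -0.01 with an interval from -0.20 to 0.17 (adjusted p = 0.92). The GC content and length correction was not run for this difference. With it, the single effects of overexpression and knockdown were -0.11 and 0.28 in JUNB and -0.65 and 0.11 in JUND. In BATF3 the interval ran from -0.03 to 1.503 (adjusted p = 0.105), and in MAFF from -0.65 to -0.0026 (adjusted p = 0.0893). ZMYND8 differed by a log2 fold change of 5.87 with overexpression and of -0.94 with knockdown, so the sizes of the 2 effects are not on an equal footing.

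The 2 control groups were compared because levels across all 4 groups rest on them. Experiment, Dox and vector differ together between them and cannot be told apart. In the KD control cells 7 members were higher than in the parental cells, beside 33.6% of 20385 genes tested, and 2 were lower, beside 36.2%. Called higher were 3 members (ATF3, FOSB and FOS), beside 10.8% of all genes, and 0 were called lower, beside 10.8%. At an unadjusted p below 0.05 the lower members were JUND and BATF3, and DESeq2 called none of them. Of the markers, adrenergic genes summed to 443 to 454 CPM in the parental and 965 to 1012 CPM in the KD control libraries. At an adjusted p below 0.05, 9 of the 10 tested were higher and 1 was lower. Mesenchymal genes summed to 10959 to 11533 CPM and 6350 to 6488 CPM, with 4 of 11 higher and 7 lower. Their part in the AP-1 values was not tested here either.

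ATF3 had the largest change between the controls, with a log2 fold change of 3.06 (SE 0.108, adjusted p = 1.62e-09), 8.36-fold higher in the KD control. FOSB followed at 2.37 (SE 0.195, adjusted p = 1.19e-06) and FOS at 1.11 (SE 0.141, adjusted p = 3.48e-05). So the levels of FOS, FOSB and ATF3 in the KD control exceeded those of the parental cells, and for ATF3 and FOSB they also exceeded those of both overexpression libraries. FOSL1 (1.00, adjusted p = 1.10e-07), FOSL2 (0.69, adjusted p = 5.07e-07) and JUN (0.66, adjusted p = 3.12e-06) were higher too. FOSL1 lay at the fold threshold, with 1.02 without parental replicate 1 and 1.07 without KD control replicate 2, where it passed.

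JUNB was at 0.17 between the controls (adjusted p = 0.038), a result lost in DESeq2 (adjusted p = 0.123). It was also lost without parental replicate 1 (0.13) and without KD control replicate 1 (0.08). With the GC content and length correction JUNB was at 0.81 (adjusted p = 1.12e-06). JUND was lower in the KD control by a log2 fold change of -0.31 (SE 0.0638, adjusted p = 0.00133), but turned to 0.74 with the GC content and length correction. BATF3 was at -0.996 (SE 0.258, adjusted p = 0.0053), just short of the fold threshold, which it passed without parental replicate 2 (-1.09) and without KD control replicate 1 (-1.18). Without KD control replicate 2 it was at -0.82, and in DESeq2 it did not pass (-1.01, adjusted p = 0.0767). MAFF did not pass the test, with an interval from -0.18 to 0.30 (adjusted p = 0.632), but did so with the GC content and length correction (0.40, adjusted p = 0.00743). Among 7 heat shock genes, which mark stress, the summed level was 658 to 674 CPM in the parental, 524 to 593 in the overexpression, 727 to 771 in the KD control and 677 to 707 CPM in the knockdown libraries. HSPA6 was at 7 counts in each parental library and at 1134 and 990 in the KD control. HSPA1A and HSPA1B had 3 counts or fewer in every library, and the part of stress in the AP-1 values was not tested.

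Over the 4 groups, FOSL1, FOSL2 and JUN had 1 order of levels: knockdown, KD control, parental and overexpression, from high to low. No neighbouring groups overlapped in these genes, which with 2 libraries per group is a description and not a test. FOS had the order overexpression, KD control, knockdown and parental, also without overlap. ATF3 ran from the KD control over knockdown and overexpression to the parental cells, and FOSB had the same order, with KD control and knockdown overlapping. JUND overlapped between the groups of each experiment, and MAFF between knockdown and KD control and between KD control and parental. The summed level of the 10 members was 399 to 405 CPM in parental, 312 to 331 in overexpression, 532 to 581 in KD control and 648 to 670 CPM in knockdown libraries.

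Genes with patterns most like FOSL1 and JUN were sought among 13531 genes with a mean normalized count above 100, by Pearson's r of log2 CPM over the 8 libraries. The 3 nearest to FOSL1 were BCAT1 (r = 0.9995), TRIM55 (r = 0.9993) and PTPRJ (r = 0.9985). The 3 nearest to JUN were SNX18 (r = 0.9994), PPP3CA (r = 0.9988) and ARF4 (r = 0.9987). BCAT1, an enzyme of branched-chain amino acid breakdown, was at 297 and 287 CPM in parental, 137 and 109 in overexpression, 457 and 460 in KD control and 643 and 628 CPM in knockdown libraries. These points share libraries and groups, so the correlations are descriptions of 4 group levels and are given without a test.

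The other genes of the pathway were taken from lists of dimer partners, kinases, phosphatases, immediate early genes and targets. Of 13 other AP-1 dimer partners 11 were tested, and with overexpression 5 were higher and 5 lower, with a median log2 fold change of 0.16. Called higher were 3, among them MAF (3.38, adjusted p = 2.12e-08) and CREB5 (1.32, adjusted p = 1.32e-07). MAF encodes a large MAF protein, which carries an activation domain that MAFF lacks. With knockdown 5 were higher and 2 lower, none called, among them JDP2 (0.64, adjusted p = 0.00361), a repressor that pairs with JUN proteins, and MAF with 14 and 16 counts in the KD control against 2 and 0. BATF was at 0 counts in all libraries.

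The CNC and BACH factors pair with MAFF and the other small MAF proteins. Of these 6 genes 1 was higher and 4 lower with overexpression, with a median log2 fold change of -0.51. The higher one was BACH2 (2.90, adjusted p = 9.47e-10), a repressor, at 6.12 and 5.57 CPM in the parental libraries and at 40.9 and 45.9 CPM with overexpression. With knockdown 1 was higher (NFE2L3, 0.33, adjusted p = 0.00107) and 2 were lower, among them NFE2 with 21 and 30 counts against 10 and 4.

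MAP kinases and ternary complex factors act upstream of FOS and JUN. Of 19 such genes, 6 were higher and 8 lower with overexpression, with a median of -0.00 on the log2 scale, and 1 was called, ELK4 (-1.35, adjusted p = 1.41e-08), a partner of serum response factor. With knockdown 6 were higher and 3 lower, and MAPK13, a p38 kinase, was called higher (1.66, adjusted p = 7.96e-04). Phosphatases and feedback inhibitors switch this signal off. Of 13 such genes, 4 were higher and 5 lower with overexpression, with DUSP6, the phosphatase of ERK, called higher (1.05, adjusted p = 2.11e-07) and DUSP10, a phosphatase of JNK and p38, called lower (-1.03, adjusted p = 1.23e-06). DUSP8 was also called higher, from 3 and 1 counts to 119 and 25. With knockdown 2 were higher (DUSP1, 0.47, adjusted p = 0.00191, the larger) and 1 was lower (DUSP10, -0.48, adjusted p = 3.39e-04).

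Other immediate early genes, which respond to the same stimuli as FOS and JUN, were divided with overexpression. Of 16 tested among 19, 7 were higher and 6 lower, with a median log2 fold change of 0.31. ARC, a neuronal gene of synaptic activity, was at 0.235 and 0.116 CPM in the parental libraries, on only 10 and 6 counts. With overexpression ARC was at 6.95 and 6.45 CPM (log2 fold change 5.29, adjusted p = 2.49e-08). EGR3 rose by 2.17 (adjusted p = 2.68e-05). CCN2 (-2.05, adjusted p = 2.25e-06) and CCN1 (-1.95, adjusted p = 9.80e-07), matricellular proteins that are also known targets of YAP, fell. EGR4 and IER3 had 3 counts or fewer in every library. With knockdown 3 were higher and 1 lower, with KLF4 at 0.73 (adjusted p = 0.0123) and ZFP36, which promotes mRNA decay, at -0.55 (adjusted p = 0.00137).

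The known AP-1 targets were mostly lower with overexpression. Of 17 tested among 19, 13 were lower and 2 higher, with 10 called lower and 1 called higher, and the median log2 fold change was -1.24, against 0.03 for all genes. LIF, a cytokine, was at 59.7 and 66.2 CPM in the parental libraries and at 8.44 and 7.07 CPM with overexpression (-3.01, adjusted p = 9.14e-10). CXCL8 (-2.92, adjusted p = 8.07e-08) and MMP3 (-2.89, adjusted p = 1.49e-09) fell by similar amounts, and MMP13, a collagenase with an AP-1 site known to drive it, went from 86 and 84 counts to 3 and 1. With knockdown 7 of 15 tested were higher and 1 lower, none called, with a median of 0.24 against -0.01, and MT2A was among the higher ones (0.75, adjusted p = 1.87e-05). These genes answer to many other factors, and no test ties their values to those of the AP-1 members.

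**Figure D4:**
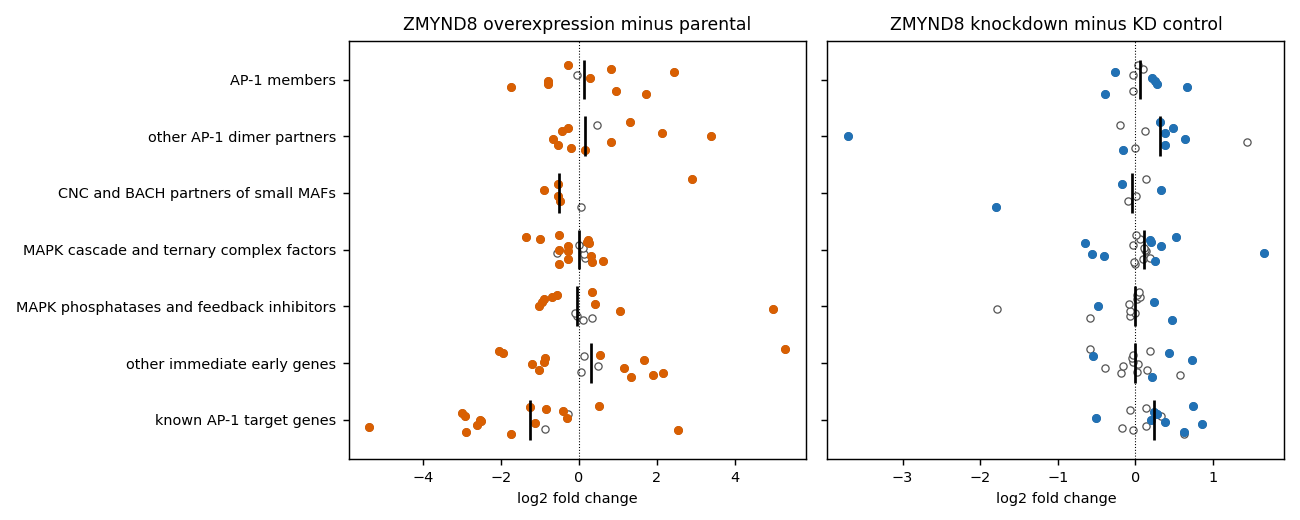
Log2 fold change of the tested genes of each list (x axis) with overexpression (left) and knockdown (right), with filled points for an adjusted p below 0.05 and black bars for the median of a list. The targets have a median of -1.24 with overexpression and 0.24 with knockdown, and the AP-1 members have 0.13 and 0.06. The points of MMP13, DUSP8 and MAF at the far ends rest on a group with 4 counts or fewer and their positions depend on the fit. The ARC point with overexpression (5.29) rests on 10 and 6 counts in the parental libraries.

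In the comparison of the 2 controls, of the targets 8 were higher and 7 lower in the KD control, with HBEGF at 4.06 (adjusted p = 1.63e-11), MMP9 at 3.77 (adjusted p = 2.52e-06), MMP3 at -5.62 (adjusted p = 2.90e-11) and MMP1 at 45 and 56 counts against 1 and 0. The AP-1 members had a median log2 fold change of 0.67 in this comparison, against -0.00 for all genes. Of the immediate early genes 8 were higher and 4 lower. ARC (2.38, with 10 and 6 parental counts), EGR1 (1.92) and EGR3 (1.71) were among those called higher, and NR4A2 (-1.58) among those called lower. Of the other dimer partners 4 were higher and 6 lower, with 2 called higher, among them CREB5 (2.54), and BATF2 (-2.44) and MAF (-1.50) called lower. BACH2 (3.33) was called higher, MAPK13 (-1.26), MAPK12 (-1.10) and SPRY2 (-2.51) were called lower, DUSP1 (1.03) was called higher, and DUSP8 went from 3 and 1 to 181 and 17 counts.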

How the data were processed

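RNA-seq counts of 8 SK-N-SH libraries were analysed. The values are raw counts of reads per gene as the authors deposited them, made by trimming (Trim_Galore), alignment to GRCh38 (Hisat2) and counting (FeatureCounts). The deposited table also holds a summed exon length per gene, which is no measurement of a sample, and its coordinates are used for genes. Of 60662 lines, 3 belonged to 1 split gene and were left out, and 0 columns of values were unused. Symbols and GC content came from GENCODE release 44, which matched 60418 of 60659 genes.

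In each comparison, genes of low count were removed (filterByExpr), libraries were scaled by TMM, and two-sided quasi-likelihood tests were run in edgeR 4.0.16 (limma 3.58.1, R 4.3.3) and adjusted after Benjamini and Hochberg over all genes tested. Standard errors were derived from the F statistics. Calls needed 3 things: adjusted p under 0.05, a log2 fold change of 1 or more in size, and over 20 normalized counts on average. The study used DESeq2, and DESeq2 1.42.0 was run as an alternative. Trends over GC content and gene length were fitted by loess with a span of 0.5 and recentred. Counts on genes were 38316523 to 56256979 per library, and precision is limited by 2 libraries per group. The fits were tested on simulated data. Replicates differed by more than sampling noise (chi-square over degrees of freedom 5.7 to 8.72).

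The members, the lists and the tests were chosen with earlier results of these data known. The genes named are ZMYND8, every member, the called genes with the largest change in each list (up to 4, or up to 2 with an adjusted p below 0.05 where none was called), and the 3 genes most like FOSL1 and JUN. Some genes that this rule names are not reported here. HSPA6, TWIST1, PRRX1 and the genes with 3 counts or fewer were named after their values were seen.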

Additional observations from a re-analysis of the deposited data

Results flagged for a closer look

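The effects of overexpression and knockdown differed in 6 members, by edgeR's quasi-likelihood test of the difference over all 8 libraries with Benjamini-Hochberg adjustment over all genes. Of these, 3 were higher for overexpression, beside 24.6% of 22619 genes tested, and 3 were lower, beside 24.4%. The difference, overexpression effect minus knockdown effect on the log2 scale, was 2.69 in ATF3 (adjusted p = 1.33e-09) and 2.11 in FOS (adjusted p = 1.02e-07). In FOSB it was 0.96 (adjusted p = 0.0126), with no change of FOSB detected in the knockdown comparison itself. It was -2.43 in FOSL1 (adjusted p = 1.18e-09), -1.08 in FOSL2 (adjusted p = 4.76e-07) and -1.06 in JUN (adjusted p = 6.52e-08), where the single effects had opposite signs. For FOSB the difference was lost in DESeq2 (0.90, adjusted p = 0.0879) and without overexpression replicate 2 (0.74, adjusted p = 0.0717).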

How the results depend on the processing

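Of 431 values of members under the alternatives, 390 kept their side of the threshold, though the sign of values not past it could change, 33 lost and 4 gained significance, 3 reversed and 1 moved. The reversed values were JUNB with overexpression, at -0.11 with the GC content and length correction and -0.11 with that correction and the replicate block, and JUND between the controls, at 0.74 with the correction. Without a fold threshold, the members called numbered 9 with overexpression, 6 with knockdown and 9 between the controls, against 3, 0 and 3. An adjusted p below 0.05 alone was reached by 12663 of 20835 genes tested with overexpression. With knockdown it was reached by 4799 of 19789, and between the controls by 14244 of 20385. Without a filter on low counts, 2 members had an adjusted p below 0.05 with knockdown, against 6, and leaving out 1 library gave 1 (without KD control replicate 2) to 5. Over all genes, those with an adjusted p below 0.05 with knockdown numbered 4799, against 2970 without the filter and 2813 without KD control replicate 2. With 1 library left out, the lone library of its group is assumed to vary like the others. The share of FOSL1 in the FOS family over 8 libraries was 22.5% by CPM, which ignores length. By TPM it was 27.96% to 62.9% in single libraries.

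Over all genes, the deviations of libraries with the same replicate number were uncorrelated (r = 0.000123 with overexpression and -0.00651 with knockdown). Whether the number marks a shared culture or batch was not tested. With the replicate block the members with an adjusted p below 0.05 were 9 with overexpression and 6 with knockdown, the same numbers as without it, and no called member changed. With knockdown, the block lowered edgeR's adjusted p from 0.0126 to 0.00102 in JUN and from 0.0387 to 0.0037 in JUNB. Over all genes, those below 0.05 with knockdown numbered 6318 with the block, against 4799. DESeq2 gave 6 and 4 members. MAFF passed the test of the difference with size factors of DESeq2 (-0.39, adjusted p = 0.0437). The limit of depth is plainest in FOSB and BATF3, which have the fewest counts and the widest intervals of the members with overexpression.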
